A study of Oryza sativa with 6 samples.

Results

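Of 36960 features in the read count table of rice (Oryza sativa) roots, 53 genes carry a name of the metal transporter families ZIP, YSL, HMA, MTP, NRAMP or VIT. They were taken by the deposited symbol alone. That pattern matches 55 rows, and 2 of them, NRAMP1 and YSL15, were set among the iron deficiency genes instead. The families hold 10 ZIP, 17 YSL, 8 HMA, 10 MTP, 6 NRAMP and 2 VIT genes. The compared groups were 3 samples of the mutant line mads61-3 and 3 of the wild type (WT), all of roots in a hydroponic medium with 2.5 mM nitrate and no fungal partner. OsMADS61 codes for a MADS-box transcription factor, and the series asked how it acts on nitrate transport in such roots. The mutant is a single line, and neither the kind of mutation nor the age of the plants is given in the labels, and nothing there ties each replicate to plants or a tank of its own. The p-values are therefore a measure of sample-to-sample spread alone, part of which may be technical. In whole roots fewer cells of a type and less RNA per cell cannot be told apart.

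Plants take up iron, zinc, manganese and copper from the soil through membrane transporters, pass them from the outer root layers to the xylem, and store or bind what is in excess. ZIP proteins bring zinc and iron into the cytosol, NRAMP proteins move manganese, iron and, through the same route, cadmium, and YSL proteins carry metals bound to nicotianamine or to phytosiderophores, the iron chelators that grasses release. HMA proteins are ATP-driven pumps that load zinc or copper into the xylem or the vacuole, MTP proteins move zinc or manganese out of the cytosol, and VIT proteins bring iron and zinc into the vacuole.

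Library totals ran from 27060698 to 34179150 counts in mads61-3 and from 24145708 to 27338562 in WT, and 3 counts stood for 0.0875 to 0.131 CPM (counts divided by the library size, as scaled by edgeR's TMM method, and brought to a common total). OsMADS61 (Os04g0461300, chromosome 4) stood at 6.24, 2.41 and 4.63 CPM in mads61-3 against 552, 573 and 2.38 CPM in WT as labelled. Its log2 fold change was -6.40 (SE 1.71, edgeR, adjusted p = 0.129). The library labelled WT replicate 3 thus lay with the mutants for this gene, and every comparison below counts it as WT unless it is said to be left out. Of 8 root marker genes 6 were matched, and their summed FPKM (fragments scaled to transcript length and library depth) ran from 1965 to 3945 in mads61-3 and from 1141 to 1604.5 in WT. The silicon transporter genes LSI1 and LSI2 made up most of the mutant sums, with means of 1849 and 1129 FPKM in mads61-3 and 624 and 317 in WT. Their log2 fold changes were 1.45 and 1.70. RCc3 went the other way (log2 -2.56), with 77.8, 96.3 and 60.98 FPKM in mads61-3 and 27.3, 253 and 1081 in WT. HAK1 had a log2 fold change of 1.86, OsSHR1 0.14 and OsSCR1 -0.16. In CPM the groups overlapped for all 6 markers. Green-tissue markers were matched for 4 of 8 and summed to 5.09 to 75.2 FPKM in mads61-3 and 0.672 to 13.03 in WT. All 4 had positive log2 fold changes, 0 were called, RBCS was above WT in every mutant library, and CAB2R had 0 counts in the library labelled WT replicate 3. Their part in the differences of metal transporter genes was not tested.

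No metal transporter gene passed the edgeR test between mads61-3 and WT roots. Of 47 members with enough counts, the quasi-likelihood test of edgeR called 0 higher and 0 lower at an adjusted p under 0.05, where 1.25% of all tested features were called, 0.325% higher and 0.924% lower. The unadjusted p was under 0.05 for 10 members with higher and 4 with lower values in mads61-3, against 7.86% and 8.68% of all tested features. Among those with higher values were the manganese transporter NRAMP5, the zinc transporters OsZIP1 and OsZIP9 and the manganese-nicotianamine transporter OsYSL6, and among those with lower values the copper pump HMA4 and the zinc transporter OsZIP4. DESeq2 called 5 members higher and 1 lower (3.96% and 4.76% of its features), while limma-voom called 0 (0.885% of all features), as did limma on log2(FPKM + 1) and log2(FPKM + 0.1) (1.88% and 2.19%). No member was called with DESeq2's size factors in edgeR (1.27% of all features), without the filter on low counts (0.962%) or with the replicate number as a block (0.317%). With the library labelled WT replicate 3 left out edgeR again called 0 members, where 2.76% of all features were called. In that fit 7 members with higher and 6 with lower values had an unadjusted p under 0.05. The share of all features at that unadjusted threshold was not computed for this fit. Leaving out WT replicate 2 or mads61-3 replicate 2 also gave 0 (0.407% and 0.0534% of all features), and leaving out mads61-3 replicate 1 or 3 gave 0 calls among all features. Leaving out WT replicate 1 gave 2 members called higher, OsYSL12 and OsYSL13 (0.865% of all features).

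The median log2 fold change of the 47 tested members was 0.10, with a range from -1.30 to 1.98, against a median of -0.04 over all 25531 features tested. Positive values were found in 28 members and negative values in 19, where 47.2% of all tested features were positive. In 9 members every mutant library lay above every library labelled WT and in 3 every one lay below, where 11.4% and 11.3% of all tested features did so. A difference of at least 2-fold was found in 8 members, 6 on the high and 2 on the low side, and in 17.9% of all tested features. The count of 10 with higher values at an unadjusted p under 0.05 changed when single libraries were left out. It was 4, 11 and 3 without mads61-3 replicates 1, 2 and 3. Without WT replicates 1, 2 and 3 it was 15, 3 and 7. The count of 4 with lower values was 2, 1 and 1 without mads61-3 replicates 1, 2 and 3. It was 2, 1 and 6 without WT replicates 1, 2 and 3. These fits have 1 library fewer, and the share of all features at this threshold was not computed for them.

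**Figure D1:**
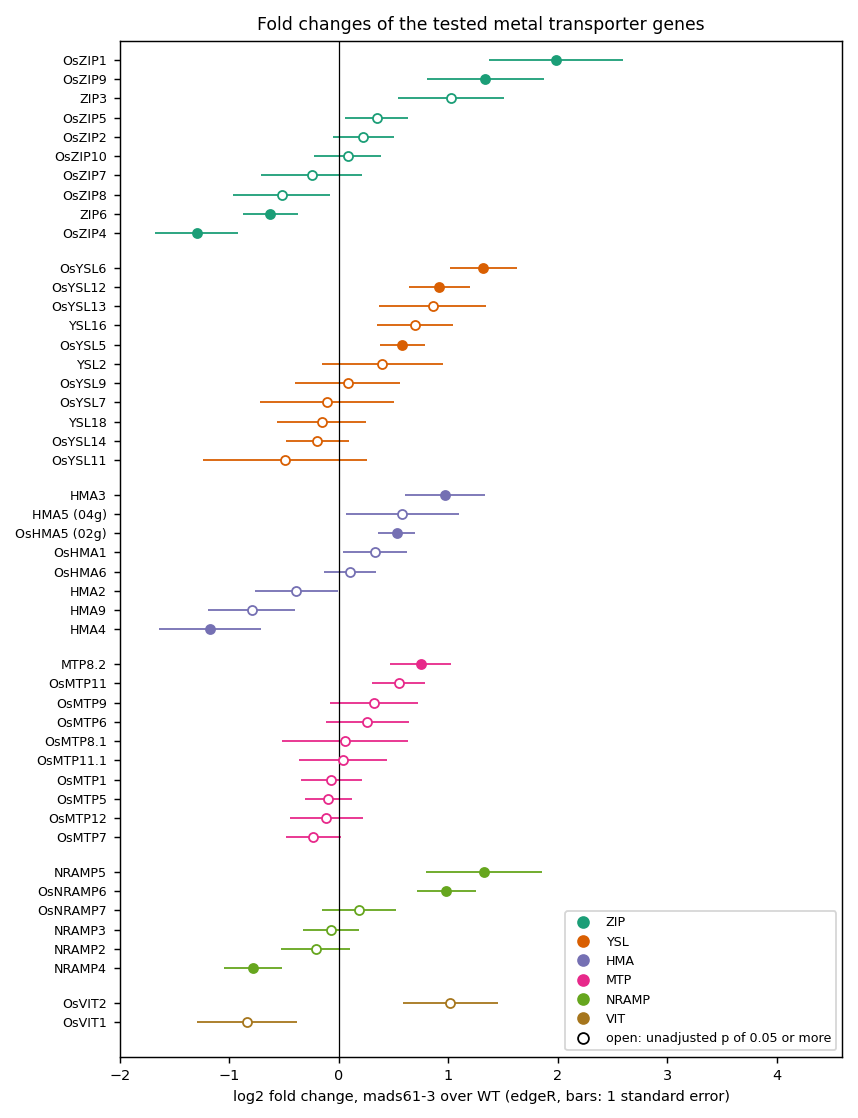
Log2 fold change, mads61-3 over WT, of the 47 tested metal transporter genes by family, with bars of 1 standard error from edgeR and filled points at an unadjusted p under 0.05. OsZIP1 lies farthest to the right at 1.98 and OsZIP4 farthest to the left at -1.30, and the MTP genes lie between -0.23 and 0.75; HMA5 (04g) is Os04g0556000 and OsHMA5 (02g) is Os02g0172600.

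Levels between genes were compared in FPKM, which is scaled to gene length. NRAMP5, the main entry for manganese and cadmium in rice roots, had the highest mean of the 53 members over the 6 libraries, 103 FPKM, followed by HMA4 at 89.1, HMA9 at 76.3, HMA2 at 65.5 and HMA5 (Os04g0556000) at 60.2. The ranges of these 5 genes over the libraries overlapped, from 20.1 to 87.3 FPKM for HMA5 and from 29.8 to 196 for NRAMP5. At least 50 FPKM on average was reached by 7 members, and 10 stayed under 1 FPKM. OsYSL3 and OsYSL4 had 0 counts in all 6 libraries, so 3 counts per library is the upper limit. OsYSL17 had 0 counts in mads61-3 and 7 in the library labelled WT replicate 3 alone. OsYSL1 had 7 counts over the mads61-3 libraries and 9 over WT, OsYSL8 had 17 in each group, and OsYSL10 had 30 in mads61-3 and 18 in WT. These 6 YSL genes were the members not tested.

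**Figure D2:**
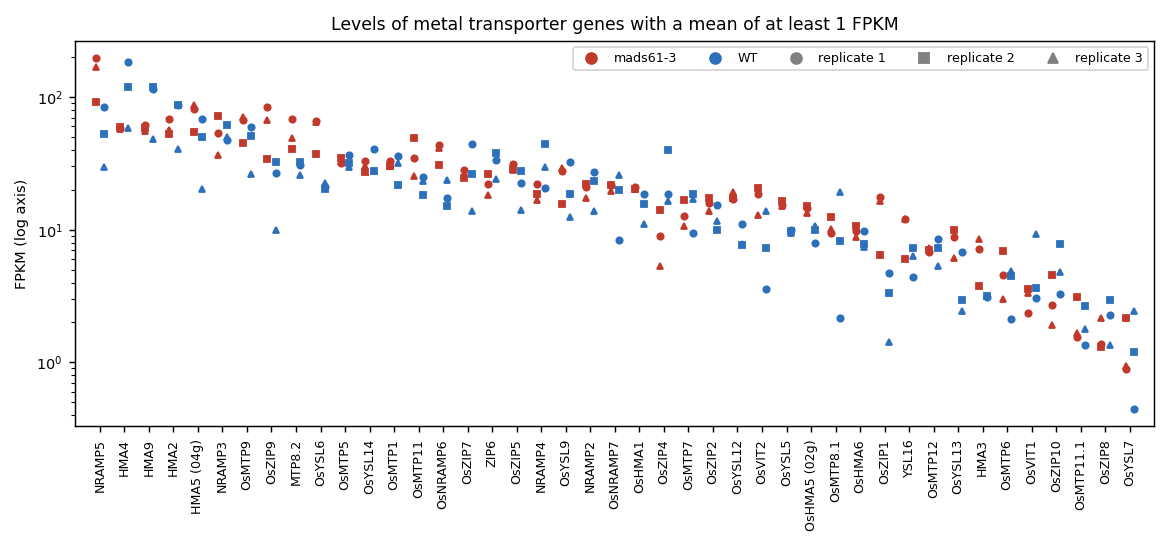
Deposited FPKM (log axis) in every library of the 43 metal transporter genes with a mean of at least 1 FPKM, ordered by that mean, mads61-3 in red left of WT in blue. NRAMP5 leads with a mean of 103 FPKM, and for HMA4, HMA9 and HMA2 the library labelled WT replicate 3 lies far below WT replicates 1 and 2.

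Summed over a family, FPKM were higher in every mutant library than in every library labelled WT for YSL, MTP and NRAMP genes. The YSL genes summed to 166 ± 27.2 FPKM in mads61-3 and 106.6 ± 19.2 in WT (mean ± SD, n = 3 per group, as in all such pairs below). For the MTP genes the sums were 252 ± 15.9 and 197.6 ± 13.3, and for the NRAMP genes 304.4 ± 50.7 and 198.1 ± 22.6, in mads61-3 and WT in that order. Abundant members weigh most in such sums. In the same order NRAMP5 alone had 151 ± 54.2 and 55.5 ± 27.4 FPKM, and OsYSL6 55.97 ± 16.4 and 21.2 ± 1.13. Log2 fold changes were positive in 7 and negative in 4 tested YSL genes, 6 and 4 MTP genes, and 3 and 3 NRAMP genes. On the CPM scale the YSL, MTP and NRAMP sums overlapped between the groups. The median log2 fold change of all features was -0.04 in edgeR on counts and 0.10 in limma on log2(FPKM + 0.1). These 2 fits differ in method as well as in scaling. It was 0.017 in limma-voom on counts and 0.063 in limma on log2(FPKM + 1). CPM sums also carry no weight for gene length, and which of these differences makes the sums overlap was not tested. The HMA sum was 301.6 ± 24.5 FPKM in mads61-3 and 367.7 ± 151 in WT, the WT libraries running from 491 in replicate 1 to 200 in the library labelled WT replicate 3.

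Uptake from the soil solution is the role of NRAMP5, OsZIP9 and OsZIP5, and of NRAMP4, known in rice as the aluminium transporter Nrat1. NRAMP5 (Os07g0257200, chromosome 7) stood at 415, 175 and 369 CPM in mads61-3, against 212, 108 and 62.5 in WT. Mutant replicate 2 lay below WT replicate 1, so the groups overlapped, and the log2 fold change was 1.33 (SE 0.53, edgeR, adjusted p = 0.275) and 1.00 with the library labelled WT replicate 3 left out. OsZIP9 (Os05g0472400, chromosome 5), a zinc uptake transporter, had 145, 53.4 and 121 CPM in mads61-3 and 55.1, 54.0 and 17.2 in WT. Here too mutant replicate 2 fell within the WT range, and the log2 fold change was 1.34 (SE 0.54, edgeR, adjusted p = 0.281), or 0.97 with the library labelled WT replicate 3 left out. OsZIP5, which lies next to it with 1 listed locus between them and shares its role, had 47.1, 39.2 and 44.1 CPM in mads61-3 and 40.6, 40.8 and 21.1 in WT (log2 0.35).

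NRAMP4 (Os02g0131800, chromosome 2) went the other way, at 43.7, 33.1 and 34.5 CPM in mads61-3 and 48.5, 84.8 and 58.1 in WT. Every mutant library was below every library labelled WT, with a log2 fold change of -0.78 (SE 0.26, edgeR, adjusted p = 0.208). OsZIP4 (Os08g0207500, chromosome 8), a zinc transporter of roots and shoots, had 20.2, 26.1 and 13.4 CPM in mads61-3, against 42.0, 72.2 and 32.6 in WT. These groups did not overlap either, and the log2 fold change of -1.30 (SE 0.38) was not called by edgeR (adjusted p = 0.155) but was by DESeq2 (adjusted p = 0.0276).

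OsZIP1 (Os01g0972200, chromosome 1), a zinc-responsive member of the ZIP family, had 24.7, 8.22 and 23.97 CPM in mads61-3 and 7.84, 4.59 and 1.99 in WT. Its mutant libraries all lay above the WT libraries, mutant replicate 2 by a narrow margin, and its log2 fold change of 1.98 (SE 0.61) was called by DESeq2 (adjusted p = 0.0158) and not by edgeR (adjusted p = 0.177). OsZIP7, a zinc transporter of the stele, had the second highest ZIP level and stood at 55.8, 43.5 and 53.1 CPM in mads61-3, against 104, 50.3 and 26.9 in WT. Its WT libraries spanned the mutant values on both sides (log2 -0.25, SE 0.46). ZIP6 averaged 33.0 ± 3.71 CPM in mads61-3 and 50.8 ± 13.2 in WT, a log2 fold change of -0.62, with mutant replicate 2 at 36.3 CPM just above the library labelled WT replicate 3 at 35.8. The remaining ZIP genes had log2 fold changes of 1.03 (ZIP3, a zinc transporter of stem nodes), 0.23 (OsZIP2), 0.08 (OsZIP10) and -0.52 (OsZIP8). ZIP3 stood at only 1.27 ± 0.324 CPM in mads61-3 and 0.623 ± 0.218 in WT.

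The YSL family gave the lowest p-value of all members. OsYSL6 (Os04g0390500, chromosome 4), which carries manganese-nicotianamine, stood at 148, 75.4 and 149 CPM in mads61-3 and at 55.6, 43.2 and 49.99 in WT. No mutant library overlapped with WT, and the 3 WT libraries were close to each other, while mutant replicate 2 was nearer to WT than to the other mutants. The log2 fold change was 1.32 (SE 0.31), short of the threshold in edgeR (unadjusted p = 0.00361, adjusted p = 0.0971) and past it in DESeq2 (adjusted p = 0.00313). Its immediate neighbour OsYSL5 (Os04g0390600), with no listed locus between them, had 23.2, 22.7 and 23.6 CPM in mads61-3 and 17.9, 14.3 and 14.2 in WT. This was a small difference (log2 0.58, SE 0.20, edgeR, adjusted p = 0.222) over a narrow spread in both groups.

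OsYSL12 (Os04g0524600, chromosome 4) had 38.5, 35.6 and 45.3 CPM in mads61-3 and 29.2, 16.6 and 17.3 in WT, again without overlap. Its log2 fold change of 0.92 (SE 0.28) was not called by edgeR in all libraries (adjusted p = 0.167), but was without WT replicate 1 (log2 1.23, adjusted p = 0.0406) and by DESeq2 (adjusted p = 0.0390). OsYSL13, a YSL gene of iron distribution beside OsYSL12, averaged 17.8 ± 3.20 CPM in mads61-3 and 9.83 ± 6.93 in WT (log2 0.86) and was likewise called only without WT replicate 1 (log2 1.61, edgeR, adjusted p = 0.0408), with 17.8 CPM in that library and 6.34 and 5.34 in the other WT libraries. OsYSL11, 2 listed loci further, had a log2 fold change of -0.49. The sequences of these neighbours were not compared here, so the split of reads between similar copies is uncertain.

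OsYSL14 was the second most abundant YSL gene per length and averaged 25.9 ± 3.74 CPM in mads61-3 and 29.6 ± 10.3 in WT (log2 -0.19). YSL16, a carrier of copper-nicotianamine in the phloem, had 31.7, 14.3 and 32.5 CPM in mads61-3 and 13.7, 18.4 and 16.4 in WT, so that mutant replicates 1 and 3 were above all WT libraries and mutant replicate 2 lay among them (log2 0.69). Of the others, YSL2, which carries iron and manganese in the phloem, had a log2 fold change of 0.40, OsYSL9 0.08, OsYSL7 -0.10 and YSL18 -0.16.

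**Figure D3:**
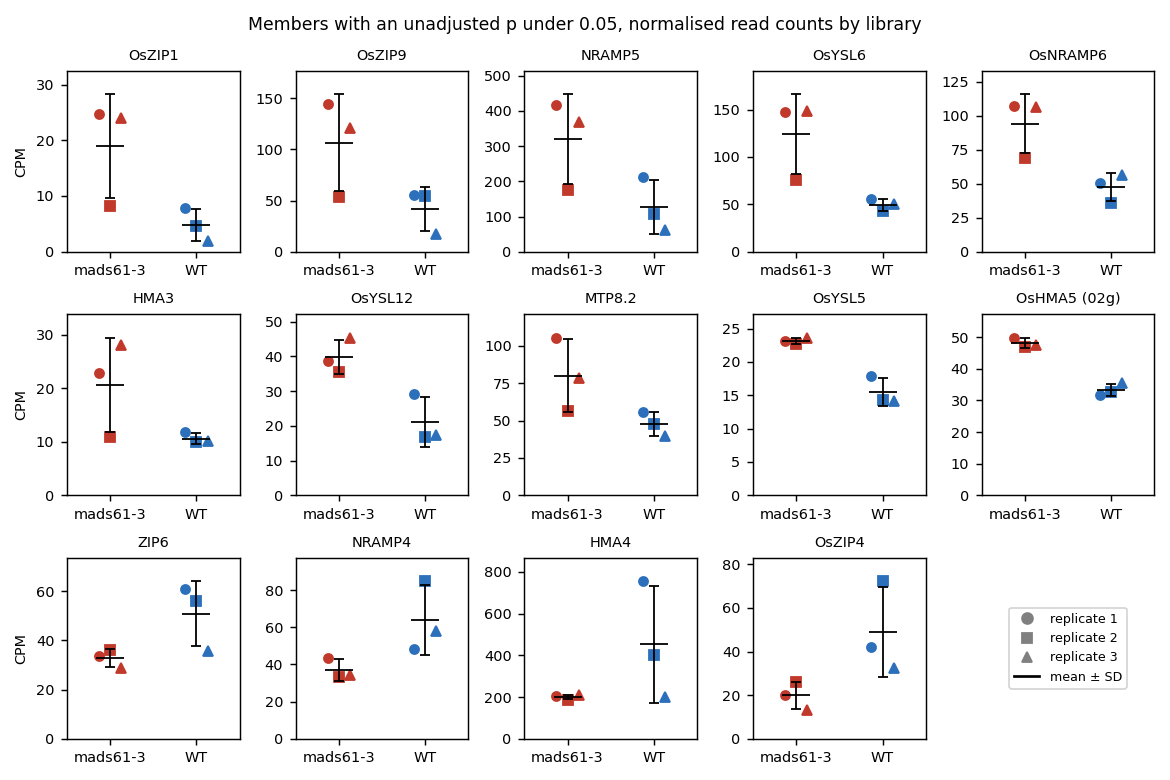
CPM in every library of the 14 metal transporter genes with an unadjusted p under 0.05, mads61-3 in red left of WT in blue, with the group mean and SD (n = 3 each) and an axis from 0 in each panel. In all panels except OsZIP4 and ZIP6 mutant replicate 2 is the lowest of the mutants, and in HMA4 the library labelled WT replicate 3 lies at 202 CPM beside mutants at 188 to 209.

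The 3 most abundant HMA genes, HMA4, HMA9 and HMA2, had lower mutant means and a wide WT spread. HMA4 (Os02g0196600, chromosome 2), which brings copper into the vacuole of root cells, stood at 206, 188 and 209 CPM in mads61-3, against 755, 404 and 202 in WT. The library labelled WT replicate 3 fell among the mutants, and the log2 fold change was -1.17 (SE 0.47, edgeR, adjusted p = 0.276). HMA9 (Os06g0665800, chromosome 6), a pump for zinc and copper efflux, had 229, 196 and 213 CPM in mads61-3 and 502, 429 and 178 in WT, the library labelled WT replicate 3 below the mutants and the other WT libraries above them (log2 -0.79, SE 0.40, edgeR, adjusted p = 0.379). With that library left out the log2 fold changes were -1.53 for HMA4 (edgeR, adjusted p = 0.0666) and -1.13 for HMA9 (edgeR, adjusted p = 0.0605). With WT replicate 1, the highest library of both genes, left out instead they were -0.59 for HMA4 (edgeR, adjusted p = 0.261) and -0.51 for HMA9 (edgeR, adjusted p = 0.401).

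Root-to-shoot transfer of zinc and cadmium depends on HMA2, and xylem loading of copper on HMA5 (Os04g0556000). HMA2 averaged 195 ± 33.7 CPM in mads61-3 and 255 ± 109 in WT (log2 -0.39), and HMA5 averaged 248 ± 73.7 in mads61-3 and 166 ± 102 in WT (log2 0.58, SE 0.51). In both the groups overlapped, and the library labelled WT replicate 3 was the lowest of all 6. A different gene with nearly the same name, OsHMA5 at Os02g0172600, had 49.8, 46.8 and 47.5 CPM in mads61-3 and 31.9, 32.5 and 35.4 in WT. This was a small difference over a small spread, called by DESeq2 (log2 0.54, adjusted p = 0.0431) and not by edgeR (log2 0.53, SE 0.17, adjusted p = 0.188).

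HMA3 (Os07g0232900, chromosome 7), which locks cadmium into root vacuoles, had 22.9, 10.9 and 28.0 CPM in mads61-3 and 11.7, 9.86 and 10.1 in WT. Mutant replicate 2 lay within the narrow WT range and the log2 fold change was 0.97 (SE 0.36, edgeR, adjusted p = 0.253). OsZIP8 is the next listed locus to HMA3 and had the opposite sign, with 2.13, 1.85 and 3.45 CPM in mads61-3 and 4.16, 4.44 and 2.06 in WT. OsHMA1, a pump of the plastid envelope, had a log2 fold change of 0.33 and OsHMA6 one of 0.10.

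Among the MTP genes, whose proteins carry manganese or zinc out of the cytosol, log2 fold changes stayed between -0.23 and 0.75. MTP8.2 (Os02g0775100, chromosome 2), which moves manganese into the vacuole, stood at 105, 56.4 and 78.5 CPM in mads61-3 and at 55.6, 48.0 and 39.5 in WT. The groups did not overlap, but mutant replicate 2 was only just above WT replicate 1 (log2 0.75, SE 0.28, edgeR, adjusted p = 0.248). OsMTP9, which passes manganese on towards the stele and works with NRAMP5, was the most abundant MTP gene and had 111, 67.2 and 122 CPM in mads61-3, against 116, 81.3 and 42.7 in WT (log2 0.32, SE 0.40). OsMTP11 (Os01g0837700), a manganese transporter of internal membranes, had 55.0, 71.5 and 48.1 CPM in mads61-3 and 46.7, 31.7 and 40.9 in WT, without overlap (log2 0.55, SE 0.24, edgeR, adjusted p = 0.318).

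OsMTP8.1, the close relative of MTP8.2 at the vacuole, had 17.3, 20.7 and 18.8 CPM in mads61-3 and 5.73, 14.6 and 34.1 in WT. Its mutants sat inside a far wider WT range, and the log2 fold change was 0.06 with all libraries, 0.90 when the library labelled WT replicate 3 was left out (edgeR, adjusted p = 0.309) and -0.37 when WT replicate 1 was left out. OsMTP1, which stores zinc in the vacuole, averaged 58.1 ± 5.48 CPM in mads61-3 and 60.9 ± 20.8 in WT. The remaining MTP genes had log2 fold changes of 0.26 (OsMTP6), 0.04 (OsMTP11.1), -0.09 (OsMTP5), -0.11 (OsMTP12) and -0.23 (OsMTP7).

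OsNRAMP6 (Os01g0503400, chromosome 1), a transporter of iron and manganese, stood at 107, 69.1 and 106 CPM in mads61-3 and at 50.3, 35.9 and 56.6 in WT. All mutant libraries were above all WT libraries, and the log2 fold change of 0.98 (SE 0.27) was called by DESeq2 (adjusted p = 0.0253) and not by edgeR (adjusted p = 0.140). NRAMP3, a manganese transporter of vascular tissue, had 125, 153 and 88.9 CPM in mads61-3 and 131, 138 and 115 in WT, the mutants on both sides of WT (log2 -0.07, SE 0.25). NRAMP2 averaged 41.5 ± 2.88 CPM in mads61-3 and 48.0 ± 19.4 in WT, and OsNRAMP7 43.5 ± 2.06 in mads61-3 and 38.3 ± 16.4 in WT.

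The vacuolar iron and zinc transporters OsVIT2 (Os09g0396900, chromosome 9) and OsVIT1 (Os04g0463400, chromosome 4) had opposite signs. OsVIT2 stood at 24.2, 24.4 and 17.5 CPM in mads61-3 and at 5.56, 9.11 and 17.9 in WT. Only the library labelled WT replicate 3 reached the mutant range, and the log2 fold change was 1.02 (SE 0.44, edgeR, adjusted p = 0.307), 1.59 without that library (edgeR, adjusted p = 0.0657) and 0.70 without WT replicate 1 (edgeR, adjusted p = 0.228). OsVIT1 had 2.59, 3.57 and 3.78 CPM in mads61-3 and 3.94, 3.88 and 9.93 in WT. Its groups did not overlap, by a margin that was small except in the library labelled WT replicate 3 (log2 -0.84, SE 0.46, edgeR, adjusted p = 0.426), and with that library left out the log2 fold change was -0.24.

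Spread within a group was wider in WT than in mads61-3. The highest over the lowest CPM had a median over the tested members of 1.41 among the mads61-3 libraries and 2.03 among the WT libraries, and was larger in WT for 39 of 47 members. Over all tested features those medians were 1.43 and 1.98. The library labelled WT replicate 3 lay within the range of the mutants in 12 of 47 members (25.5%), WT replicate 2 in 13 (27.7%) and WT replicate 1 in 10 (21.3%), against 25.2%, 30.5% and 26.5% of all tested features. The library labelled WT replicate 3 was below the mutant range in 27 of 47 members and above it in 8. Of all 25531 features tested it was below in 9644 and above in 9453. Mutant replicate 2 was the lowest mutant in 30 members (63.8%, and 40.2% of all tested features).

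The 53 genes lie on 10 of the 12 rice chromosomes, read from the locus identifiers, with 12 on chromosome 4, 9 on chromosome 2 and 8 on chromosome 5. Several sit side by side: 9 pairs of members have at most 5 listed loci between them, and 7 of those are pairs of YSL genes. Of the 7 pairs with both genes tested, 4 had the same sign in both (OsYSL6 and OsYSL5, OsYSL12 and OsYSL13, OsYSL9 and YSL16, OsZIP9 and OsZIP5) and 3 had opposite signs (OsYSL12 and OsYSL11, OsYSL13 and OsYSL11, OsZIP8 and HMA3).

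Other genes of metal acquisition were read from a list of 56 names, of which 43 were matched and 36 tested. By edgeR 0 were called in either direction. The unadjusted p was under 0.05 for 4 genes with higher and 8 with lower values (7.86% and 8.68% of all tested features), and the median log2 fold change was -0.13, against -0.04 over all features. DESeq2 called 1 higher and 6 lower, where it called 3.96% and 4.76% of all its features. The most abundant were OsSAMS1, which makes the precursor of nicotianamine, with 1087 ± 115 FPKM in mads61-3 and 813 ± 84.3 in WT (log2 0.34 on counts), and the metallothionein gene OsMT2b, with 916 ± 425 FPKM in mads61-3 and 847 ± 460 in WT (log2 -0.00).

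Of 8 tested regulators 7 had negative values and 4 were entirely below WT, as were both tested uptake genes, NRAMP1 and OsIRT2, where 11.3% of all tested features were below WT and 47.2% had positive values. The genes named here were chosen after their values were seen, and some are known from earlier results of these data. OsIRO2, the bHLH factor that switches on phytosiderophore genes, had 2.51, 1.91 and 1.54 CPM in mads61-3 and 8.62, 17.2 and 6.19 in WT (log2 -2.42, edgeR, adjusted p = 0.0636). OsbHLH156, the partner of OsIRO2, averaged 5.40 ± 1.01 CPM in mads61-3 and 10.6 ± 2.23 in WT (log2 -0.97), and the bHLH factor OsbHLH058 averaged 76.2 ± 24.1 in mads61-3 and 175 ± 43.6 in WT (log2 -1.20). The iron transporter gene OsIRT2 was near the detection limit, at 0.525, 0.066 and 0.404 CPM in mads61-3 and 0.788, 3.17 and 0.747 in WT. The other uptake genes of the list were not tested. IRT1 matched no row, and YSL15 had 3 counts in mads61-3 and 0 in WT. NRAMP1, from the same family as NRAMP5, had 4.08, 6.11 and 3.12 CPM in mads61-3, against 23.4, 36.2 and 14.3 in WT (log2 -2.47, edgeR, adjusted p = 0.0534). With the library labelled WT replicate 3 left out, edgeR called NRAMP1, OsIRO2 and OsIRO3 lower, where 2.76% of all features were called in either direction. With WT replicate 1 left out it called OsLCT1 higher and CAL1 lower, where 663 of 26367 features were called in either direction. Higher values were called in 0.865% of the features of that fit. OsLCT1 had 24, 52 and 27 counts in mads61-3 and 5, 0 and 0 in WT. CAL1 had 5.36, 4.23 and 4.63 CPM in mads61-3 and 1.09, 20.6 and 66.1 in WT, so WT replicate 1 lay below the mutants.

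Of 5 tested genes of chelator synthesis 4 had positive values, and of 10 tested genes of other metal transport 6 did. Of all tested features 47.2% had positive values. OsNAAT1, the nicotianamine aminotransferase of phytosiderophore synthesis, had 97.8, 48.7 and 55.7 CPM in mads61-3, against 49.5, 26.2 and 21.8 in WT (log2 1.05, edgeR, adjusted p = 0.265). COPT1, a copper transporter, had 82.5, 25.9 and 84.4 CPM in mads61-3 and 34.1, 18.02 and 20.1 in WT (log2 1.41, edgeR, adjusted p = 0.219), mutant replicate 2 again within the WT range. OsPCS1, a phytochelatin synthase gene, stood at 2.10, 4.82 and 1.87 CPM in mads61-3 and at 5.91, 7.45 and 7.79 in WT (log2 -1.27, edgeR, adjusted p = 0.219). The iron storage genes OsFER1 and FER2, which code for ferritin, had log2 fold changes of -0.16 and 0.23.

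**Figure D4:**
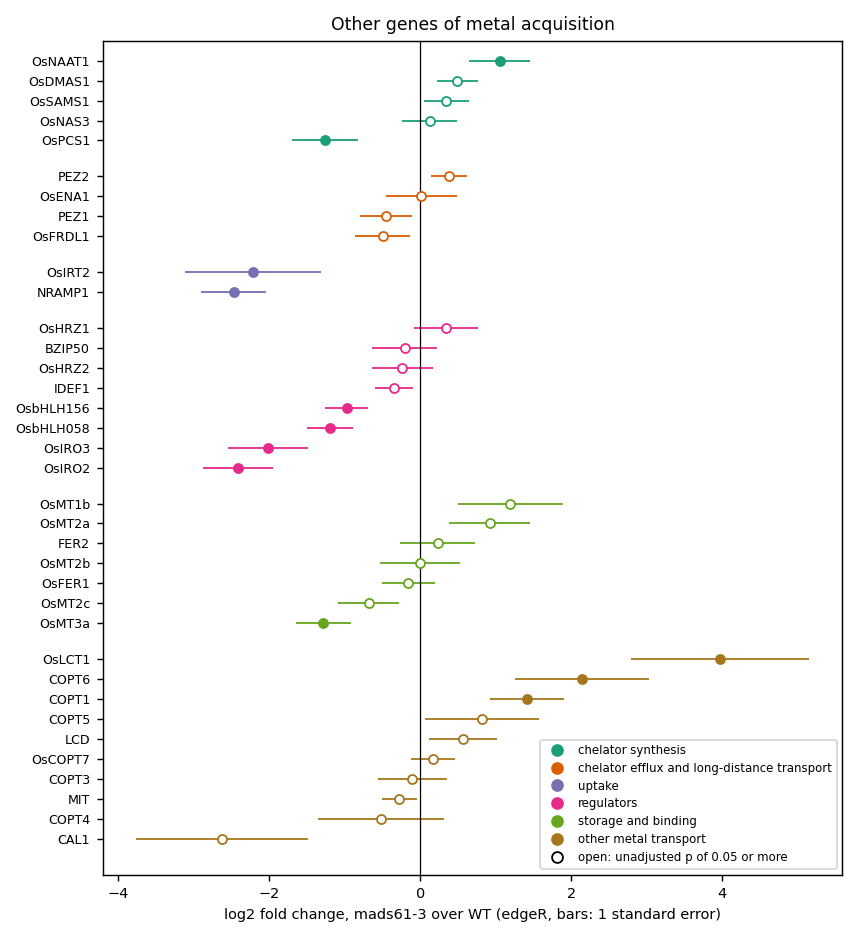
Log2 fold change, mads61-3 over WT, of the 36 tested genes of the list of metal acquisition by role, with bars of 1 standard error from edgeR and filled points at an unadjusted p under 0.05. CAL1 lies lowest at -2.63, and the uptake genes NRAMP1 and OsIRT2 and the regulator OsIRO2 lie between -2.47 and -2.22. OsLCT1 lies highest at 3.97, fitted on few WT counts.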

How the data were processed

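Root RNA was sequenced in 3 samples of mads61-3 and 3 of WT, grouped and numbered by the labels. The submitters' processing notes name HISAT2 2.0.5, SAMtools 0.1.18 and StringTie 1.3.3, besides CASAVA 1.8.2, Picard 1.41 and FastQC 0.11.9, and give a human build for these rice loci. Which rice annotation and counter were used, and whether counting used strand, is not given in the sources used here. The split of reads between overlapping or antisense partners is therefore uncertain. The deposited read counts are whole numbers per feature, not normalised. The deposited FPKM were scaled by the authors to length and depth. Columns named mads61 with a number were read as replicates of line mads61-3, and count and FPKM columns of the same name matched best.

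The test was edgeR 4.0.16 in R 4.3.3 (quasi-likelihood, two-sided, TMM, robust, default filter with minimum count 10 and total 15, group as the only term), fitted on all features, with Benjamini-Hochberg adjustment over the 25531 kept and calls at an adjusted p under 0.05. It was checked on simulated data. Each SE is the size of the log2 fold change over the root of its F statistic. Alternatives were DESeq2 1.42.0, limma 3.58.1 (voom, and on log2 FPKM with a pseudocount of 1 or 0.1), other size factors, no filter, a replicate block and each library left out. Floors cover counting error only. The rule for named genes took the 2 most abundant members of each family and the 2 with the largest fold change at 1 CPM or more. The other members named were chosen after their values were seen. The members and lists were chosen with earlier results of these data known. MT1A matched several rows and was left out, and 12 names of the list matched none.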

Additional observations from a re-analysis of the deposited data

How the results depend on the processing

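Members called numbered 6 in DESeq2 (5 higher, 1 lower) and 0 to 2 with 1 library left out, the 2 being OsYSL12 and OsYSL13 without WT replicate 1. They numbered 0 in all other settings. Genes of the metal acquisition list numbered 7 in DESeq2, and 0 to 3 with 1 library left out. All features called were 319 by edgeR, 2481 by DESeq2, 481 and 559 by limma on log2(FPKM + 1) and log2(FPKM + 0.1), and 0 to 724 with 1 library left out. DESeq2 called OsMADS61 at log2 -6.39, and with 1 library left out its log2 fold change ran from -6.99 to -5.96, called without the library labelled WT replicate 3. Deviations of same-numbered samples from their group means correlated at 0.138, 0.246 and -0.219. Those of differently numbered samples correlated at -0.322 to 0.306. Deviations from a group mean depend on each other, so these values cannot decide whether samples were paired. With the replicate block 81 features and 0 members were called. Members with lower values at an unadjusted p under 0.05 numbered 4 by edgeR, 2 by limma-voom, 1 on either log2 FPKM scale and 2 with the block. The log2 fold change of OsZIP7 turned to 0.039 and 0.046 on log2(FPKM + 1) and log2(FPKM + 0.1). With 1 library left out it ran from -0.60 to 0.40 for OsZIP7, from -0.34 to 0.13 for OsYSL14 and from -0.26 to 0.12 for NRAMP3, positive without WT replicate 1 (OsZIP7, OsYSL14) and without mads61-3 replicate 3 (NRAMP3). The cause was not tested. Over 13 alternatives 30 of 47 members kept their sign, and those that turned were at most 0.49 in size with all libraries.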

Other observations

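OsZIP10 gave different answers by unit. Its deposited FPKM were 2.72, 4.59 and 1.93 in mads61-3 and 3.29, 7.83 and 4.76 in WT, while its counts scaled to 11.5, 9.90 and 12.9 CPM in mads61-3 and 7.22, 14.2 and 10.99 in WT. The log2 fold change was 0.08 on counts and -0.76 in limma on log2(FPKM + 0.1), the widest gap between those settings among the tested members.

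NRAMP5 and the silicon transporter genes LSI1 and LSI2 ordered the libraries alike apart from mutant replicates 1 and 3, a likeness noticed after the values were seen. LSI1 had 3109, 1580.0 and 3550 CPM in mads61-3 and 1613, 869 and 525 in WT, and LSI2 had 2671, 1340.1 and 3453 in mads61-3 and 1443, 542 and 311 in WT. In all 3 genes mutant replicate 2 was the lowest mutant and lay below WT replicate 1, the highest WT library, and the library labelled WT replicate 3 was the lowest of all 6. Much of this order was common: mutant replicate 2 lowest and WT replicate 1 highest in their groups held in 22 of 47 tested members. It held in 24.5% of all tested features. The library labelled WT replicate 3 was the lowest of WT in 48.9% of tested members and 40.6% of all tested features. As background, all 3 proteins are placed in the exodermis and endodermis of rice roots, and whether the share of those layers differed between libraries was not tested.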
